A study of Mus musculus with 204 samples.

Results

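Voltage-gated potassium channel alpha subunits were followed through single neurons of the mouse distal colon. The genes were chosen by name alone, as those whose symbol places them in the Kcna, Kcnb, Kcnc, Kcnd, Kcnf, Kcng, Kcnh, Kcnq, Kcns or Kcnv families, and 40 of 49492 genes in the table qualified. The cells came from VGLUT2-tdTomato mice, in which a red fluorescent reporter stands for Slc17a6, the gene of the vesicular glutamate transporter VGLUT2. The muscle layers of about 30 mm of colon, with the myenteric plexus between them, were taken apart into single cells and kept in culture overnight. Red cells were then drawn up by hand under a fluorescence microscope. They fill 3 plates of 66, 66 and 72 cells, numbered 1 to 3. No animal or culture is named for any cell, all cells had been through the overnight culture, and no group was untreated or treated, so each plate counts as 1 sample and no p-value is given. Plates 2 and 3 share one way of naming the libraries and plate 1 has another.

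The alpha subunit is the part of a voltage-gated potassium channel that forms the pore and carries the voltage sensor, and a channel is an assembly of such subunits. The Kv1 to Kv4 families (Kcna, Kcnb, Kcnc and Kcnd) carry delayed rectifier and A-type currents that repolarise the action potential and set firing rate, the KCNQ family carries the M-current that restrains repetitive firing, and the EAG family (Kcnh) includes the ERG channels. The Kcnf, Kcng, Kcns and Kcnv genes encode silent subunits, which form no channel alone and alter the current of Kv2 channels when they assemble with them. In myenteric neurons potassium channels shape the spike and the long after-hyperpolarisation, and choline acetyltransferase (Chat) and neuronal nitric oxide synthase (Nos1) mark the main excitatory and inhibitory classes.

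Reads per cell ranged from 453052 to 14310732, with plate medians of 3445516, 4571442 and 4690978. By a list of 13 pan-neuronal genes, of which at least 50% had to reach 10 reads per 1000000 (CPM), 75.5% of the cells (exact 95% interval 69.0 to 81.2) were neuronal and 50 were other cells, although all were labelled as neurons. The neuronal cells numbered 54, 45 and 55 on plates 1, 2 and 3, and the other cells 12, 21 and 17. Median reads were alike, 4099417 in neuronal and 4039815 in other cells. Slc17a6 itself reached 10 CPM in 57.8% of neuronal cells and in 0 of 50 other cells, where a share of up to 6% is possible by the limit of 3 counts of the total and up to 7.11% by the exact interval. Among neuronal cells 56 held Chat without Nos1 (Chat-only), 30 Nos1 without Chat (Nos1-only), 50 both and 18 neither, each at 10 CPM. Median reads were 4181979, 6261658, 4254672 and 1251208 in these 4 classes. A marker list of another cell type was carried by 51 neuronal cells (33.1%) and 46 of 50 other cells (92%). In the classes this held for 17 of 56 Chat-only, 7 of 30 Nos1-only, 13 of 50 with both and 14 of 18 with neither. The smooth muscle list (Acta2, Tagln, Des, Actg2, Myh11, Cnn1 and Myl9) was carried by 22.7% of neuronal cells, with summed levels from 2.08 to 69909 CPM, and by 62% of other cells, with 7.89 to 153648 CPM. Its part in the differences between neuronal and other cells was not tested.

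Of the 40 alpha subunit genes, 39 had reads, and Kcns2 had none in any cell. A gene was called detected in a cell at 10 CPM or more. Of all genes with a mean of at least 1 CPM over all cells, 43.6% were found by that threshold in at least 50% of neuronal cells. Of the 40 alpha subunit genes, 35 had that mean, and 10 of these were found as often, a smaller share. Among them were Kcnq3 (81.2%, exact 95% interval 74.1 to 87), Kcnh2 (68.8%, 60.9 to 76), Kcnc2 (64.9%, 56.8 to 72.4), Kcnb2 and Kcnc4 (63.6% each, 55.5 to 71.2), Kcnc1 (62.3%, 54.2 to 70.0), and Kcna6 and Kcnq5 (51.3% each, 43.1 to 59.4). These genes span the Kv1, Kv2, Kv3, KCNQ and EAG families, so no family accounts for the common set. A further 7 genes lay between 25 and 50% (among them Kcna5, Kcnd2, Kcnd3, Kcnh1, Kcnh7 and Kcng1) and 6 between 10 and 25% (among them Kcna3, Kcna4, Kcnd1, Kcnh6 and Kcnv1). The other 17 were in under 10%: Kcna1, Kcna2, Kcna7, Kcna10, Kcnq1, Kcnh3, Kcnh4, Kcnh5, Kcnh8, Kcnf1, Kcng2, Kcng3, Kcng4, Kcns1, Kcns2, Kcns3 and Kcnv2. Kcna1 and Kcna2, the Kv1 subunits of many myelinated axons, were detected in 7 and 8 neuronal cells. In the other cells no gene reached 50%, the highest share was 18% (Kcna6 and Kcnh2), and 19 genes were detected in none.

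**Figure D1:**
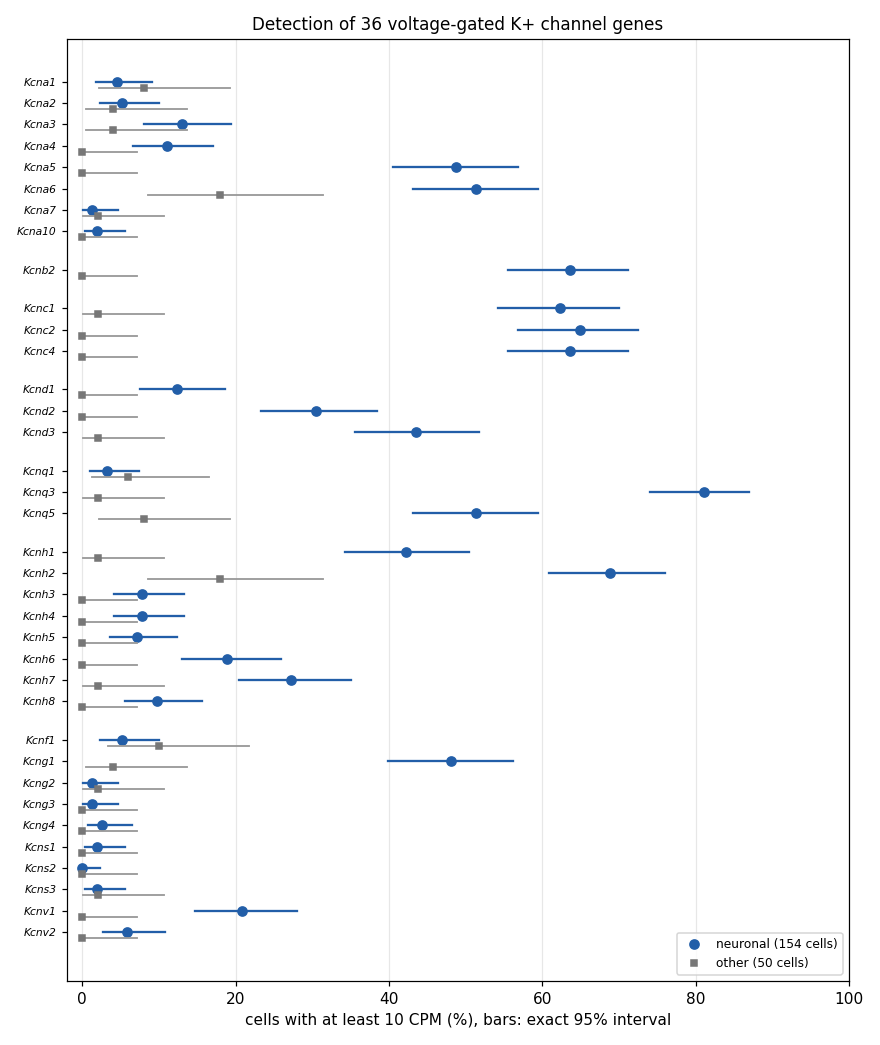
Share of cells with at least 10 CPM of each of 36 alpha subunit genes, in percent on the horizontal axis, by family; blue dots are neuronal cells, grey squares 50 other cells, and bars are exact 95% intervals that cover counting error only. Kcnq3 is at 81.2% and Kcnh2 at 68.8% of neuronal cells, and Kcna6 and Kcnh2 reach 18% in other cells.

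A neuronal cell held a median of 12 detected alpha subunit genes, from 0 to 22, and other cells a median of 1, from 0 to 5. The plate medians in neuronal cells were 13, 11 and 12. Counting any read, the medians were 17 and 5. Alpha subunits took 0.0803% of the reads of neuronal cells and 0.00774% of those of other cells. Cells with both Chat and Nos1 held a median of 13.5 (8 to 22), Chat-only cells 12, Nos1-only cells 10 (1 to 18) and cells with neither 1 (0 to 11). The class with neither also had the fewest reads and the largest share with another type's list, and the part of these in its low count was not tested. Over neuronal cells of a plate, the number of genes detected had a Spearman correlation with log10 reads of 0.25 on plate 1 (54 cells), 0.57 on plate 2 (45 cells) and 0.36 on plate 3 (55 cells), as a description of cells that share a library pool and differ in depth.

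**Figure D2:**
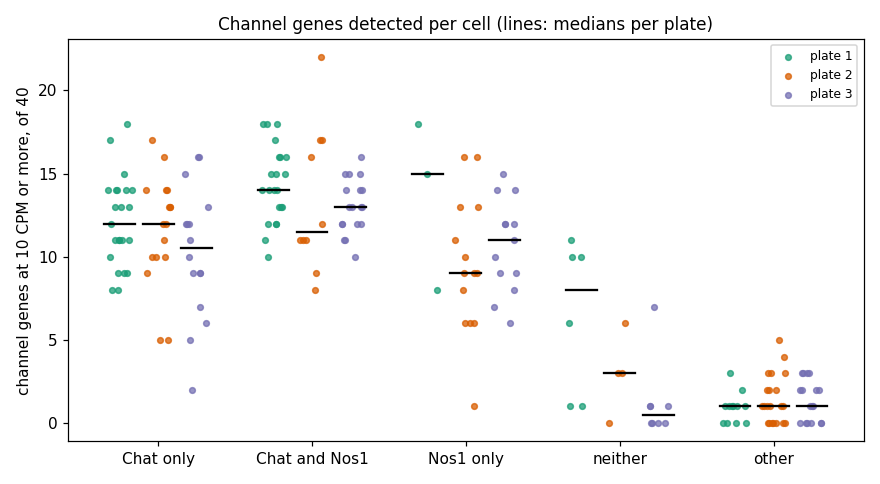
Number of alpha subunit genes at 10 CPM or more in each cell (vertical axis) by class and plate; each point is a cell and each line a plate median. The cells with both Chat and Nos1 lie between 8 and 22, and the other cells between 0 and 5.

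Of the 40 genes, 35 passed a mean of 1 CPM over all cells and were compared between neuronal and other cells. The measure was the log2 ratio of the class means within a plate, after 1 CPM was added to each. A gene was called where it differed by at least 2-fold in the same direction on every plate. Higher in neuronal cells were 23 of 35, where 15.2% of all 18816 genes were, and 0 of 35 were higher in other cells, where 4.45% of all genes were. The median ratio was 2.61 on the log2 scale for alpha subunits and 0.43 for all genes tested. Because 16 of the 35 had 0 reads in one class on a plate, the median was also taken with those genes at the bound that 3 reads give, where it was 3.94 against 0.49. Without the highest cell of the higher class, 20 were called and Kcnh3, Kcnh7 and Kcnh8 were not. With cells of another type's list removed 23 were called, with Kcnh3 lost and another gene in its place.

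Per gene length, Kcnc4, which carries a fast inactivating current, and Kcnh2, the ERG channel of the cardiac repolarising current, had the highest typical levels. Levels between genes are given as reads per kilobase of gene and per 1000000 reads (RPKM), as medians over all neuronal cells. Kcnc4 stood at 8.31 (plates 11.5, 8.25 and 5.29) and Kcnh2 at 8.00 (11.3, 6.36 and 7.35), and the order of these neighbours changes on plate 3. Kcnq3 stood at 4.84 (5.15, 4.41 and 4.80) and Kcnc2 at 4.33 (4.80, 1.66 and 4.65). Kcnq3 was the higher of the 2 on each plate, although the ranges of their plate medians overlap, and the order was not tested. Kcna5 stood at 2.50, but its plate medians were 8.82, 0 and 1.55. In all, 11 genes had a median of at least 1 RPKM and 15 a median above 0. Kcng1 had a median of 0.603 (13.7, 0.119 and 0.260) and the highest mean of all 40 genes, 20.8 (29.0, 16.5 and 16.3), above Kcnc4 at 15.4 and Kcnh2 at 14.5. Its reads were thus held by a subset of the neuronal cells, largest on plate 1.

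**Figure D3:**
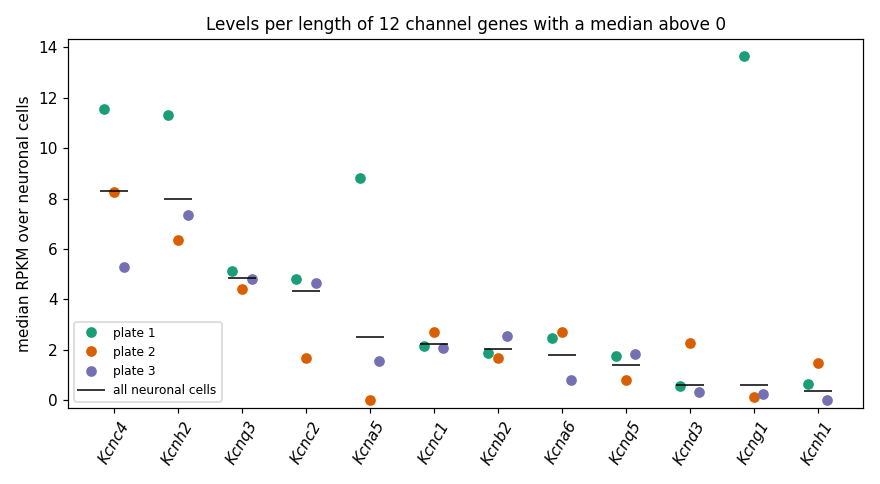
Median RPKM over neuronal cells (vertical axis) of 12 alpha subunit genes with a median above 0, with 1 point per plate and a line for all neuronal cells. Kcnc4 runs from 5.29 to 11.5 and Kcnh2 from 6.36 to 11.3, and Kcng1 and Kcna5 are highest on plate 1.

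In the Kv1 family, 77.9% of neuronal cells held at least 1 of 8 genes, and the leading gene per cell by RPKM was Kcna5 in 71 cells and Kcna6 in 39. Kcna5 lies on chromosome 6 at 126532551 to 126535412 of mm10, on the minus strand, and Kcna6 at 126708329 to 126740674 on the same strand, with Kcna1 between them at 126640397 to 126646384. The bases upstream of Kcna5 and Kcna6 are printed because these neighbours differ in where they were detected. Those of Kcnh7 are printed because, among cells with Chat, it was detected only in cells that held Slc17a6. The printed bases are the 250 before the start of the RefSeq gene in GRCm38.p6, 5′ to 3′ on the gene's strand. Capitals mark matches on either strand to the GC box GGGCGG or the E-box CANNTG.
Kcna5 (chr6:126535556-126535805, minus strand): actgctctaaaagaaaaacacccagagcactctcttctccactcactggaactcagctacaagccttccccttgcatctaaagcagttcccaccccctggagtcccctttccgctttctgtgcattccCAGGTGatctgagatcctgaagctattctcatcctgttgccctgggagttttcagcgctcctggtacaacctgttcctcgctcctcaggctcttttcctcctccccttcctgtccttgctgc
Kcna6 (chr6:126740675-126740924, minus strand): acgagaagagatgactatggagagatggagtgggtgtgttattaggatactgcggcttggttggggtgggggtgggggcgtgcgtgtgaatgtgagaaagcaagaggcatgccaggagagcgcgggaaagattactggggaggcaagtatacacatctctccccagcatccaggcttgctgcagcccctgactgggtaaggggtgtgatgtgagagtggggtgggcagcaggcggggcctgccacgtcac
Kcnh7 (chr2:63184288-63184537, minus strand): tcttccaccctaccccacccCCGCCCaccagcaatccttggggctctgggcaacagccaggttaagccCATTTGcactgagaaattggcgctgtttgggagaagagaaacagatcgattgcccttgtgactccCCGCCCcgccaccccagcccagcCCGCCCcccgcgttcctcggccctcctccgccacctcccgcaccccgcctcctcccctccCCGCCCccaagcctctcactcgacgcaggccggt
Kcna5 has 1 E-box and 3 CpG in this window, Kcna6 has no match and 8 CpG, and Kcnh7 has 4 GC boxes, 1 E-box and 16 CpG. RefSeq windows matched 25 of the 40 genes, in 30 windows. A GC box was in 56.7% of these and in 32.7% of all 32851 windows, an E-box in 63.3% and 66.2%. TATAAA was in 0 of the 30 windows and 12.4% of all, and the cAMP response element TGACGTCA in 0 and 1.55%. The median GC content was 62.6% in the alpha subunit windows and 52.4% in all. These are matches of letters and not sites of binding.

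Kcna5 was detected in 48.7% of neuronal cells (exact 95% interval 40.6 to 56.9; plates 59.3, 42.2 and 43.6%) and in 0 of 50 other cells. Its neuronal means were 44.3, 38.1 and 24.2 CPM on the 3 plates, and its means in other cells were 0.528, 0.0902 and 0.548 CPM. The log2 ratios were 4.89, 5.16 and 4.02, so the neuronal mean lay above that of other cells on every plate. Kcna5 encodes a delayed rectifier also known from heart and vascular smooth muscle. Here it was not detected in the other cells, 62% of which carried the smooth muscle list. Kcna6 was found in 51.3% of neuronal cells (59.3, 55.6 and 40.0%) and in 0, 19.0 and 29.4% of other cells by plate, and its log2 ratios of 3.73, 0.82 and -0.37 gave no call. Of 79 neuronal cells with Kcna6, 18 also held Gm26673, an opposite-strand gene that shares 2355 exonic bases with it. Since no strand setting is given, the reads of such a pair cannot be told apart. With the plates pooled, Kcna6 was in 54.7% of cells with Kcna5 (42.7 to 66.2) and in 48.1% of those without (36.7 to 59.6). These intervals overlap but cover counting error only, and the difference was not tested. Kcna4, an A-type subunit, was in 17 neuronal cells and 0 other cells, and Kcna3 in 20 and 2.

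In the Kv2 family, the delayed rectifiers of the soma and proximal dendrite, 87.7% of neuronal cells held a member. Kcnb2 had neuronal means of 55.3, 43.9 and 65.4 CPM and was in 0 of 50 other cells, with log2 ratios of 5.78, 4.95 and 5.40. Its neuronal means lay above those of other cells on all 3 plates. It was found with Kcng1 in 78.4% of the 74 cells that held Kcng1 (67.3 to 87.1) and in 50% of the 80 that did not (38.6 to 61.4). By plate these shares were 84.4, 61.1 and 83.3% against 31.8, 51.9 and 61.3%, so the gap was widest on plate 1. The part of class and depth in it was not tested.

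Silent subunits were found mostly in cells that also held a Kv2 subunit. At least 1 was detected in 92 neuronal cells (59.7%), and by RPKM Kcng1 led in 89 cells and Kcnv1 in 12 among those with any such read. Of the 92, 90 (97.8%, exact 95% interval 92.4 to 99.7) also held a Kv2 gene, as did 45 of the 62 cells without one (72.6%, 59.8 to 83.1). By plate the shares were 100, 91.3 and 100% with a silent subunit and 86.7, 72.7 and 64% without. On every plate the cells with a silent subunit were thus the higher, and plate 1 had the smallest gap. Kcng1 alone was in 74 cells, all of which held a Kv2 gene (interval 95.1 to 100), against 61 of 80 without Kcng1 (76.3%). Kcnv1, in 32 cells, was with a Kv2 gene in 31. With every cell thinned to 450000 reads, the share with a Kv2 gene among cells with a silent subunit was 96.6%. The share among cells without one is not given for thinned reads, so the gap at that depth is not shown. Over all neuronal cells a Kv2 gene was in 87.7%. Of the 18 cells with neither Chat nor Nos1, 6 held a Kv2 gene and 3 a silent subunit. These numbers were 53 and 31 of 56 Chat-only cells, 50 and 46 of 50 with both, and 26 and 12 of 30 Nos1-only cells. The part of class and depth in the gap was not tested.

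Kcng1 was the silent subunit with the most reads. Its neuronal means were 130.6, 74.2 and 73.5 CPM and its means in other cells 0.222, 11.4 and 0.669 CPM, with log2 ratios of 6.75, 2.60 and 5.48. Its detection went with that of Kcna5. Kcna5 was found in 75.7% of the 74 cells with Kcng1 (64.3 to 84.9) and in 23.8% of the 80 without (14.9 to 34.6), and by plate in 75, 77.8 and 75% against 36.4, 18.5 and 19.4%. These shares pool the Chat and Nos1 classes, and the part of class and depth in them was not tested. Kcnv1 was in 20.8% of neuronal cells (25.9, 20 and 16.4%) and no other cell. Kcnf1 was in 8 neuronal and 5 of 50 other cells, and Kcng2, Kcng3, Kcng4, Kcns1, Kcns3 and Kcnv2 were in 2 to 9 neuronal cells each. Of these, Kcng2, Kcng3, Kcng4 and Kcns2, with Kcna7, fell below the mean of 1 CPM and were not compared.

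The Kv3 family, whose fast currents allow high firing rates, had the highest summed level, a median of 24.2 RPKM. A member was in 87% of neuronal cells and at least 2 in 76%, against 4% and 0 in other cells. Kcnc4 had neuronal means of 58.4, 63.3 and 49.1 CPM against 0.644, 0.157 and 0.265 CPM in other cells, and log2 ratios of 5.17, 5.80 and 5.31. On each plate the neuronal mean was far above that of other cells. Kcnc2 had log2 ratios of 4.58, 4.95 and 5.10 (neuronal means 48.5, 32.5 and 41.8 CPM). Kcnc1 had 4.19, 2.64 and 4.99 (means 30.1, 41.0 and 31.2 CPM). Kcnc2 was in 74.5% of cells with Kcnc4 and 48.2% of those without, and the part of class and depth was not tested.

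The Kv4 family, the A-type channels that open below threshold, was detected in 64.9% of neuronal cells and in 1 other cell. Kcnd3 was in 43.5% and Kcnd2 in 30.5%, and Kcnd3 led by RPKM in 64 cells and Kcnd2 in 48. Kcnd3 had neuronal means of 13.8, 39.1 and 23.1 CPM against 0.0504, 0.0279 and 2.13 CPM. Kcnd2 had neuronal means of 11.8, 7.68 and 13.8 CPM, and in other cells 0 reads on plate 1 and means of 0.0697 and 0.0112 CPM on plates 2 and 3. Kcnd3 was thus highest on plate 2, the plate where Kcnd2 was lowest. With the plates pooled, Kcnd3 was in 46.8% of cells with Kcnd2 and 42.1% of those without, and the difference was not tested. Kcnd3 shares 165 exonic bases with Kcnd3os on the other strand. Kcnd1 was in 12.3%.

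KCNQ subunits were the most widespread family, with a member in 92.9% of neuronal cells. Kcnq3, a subunit of the M-channel, was the alpha subunit detected in most neuronal cells. Kcnq3 had neuronal means of 93.9, 93.7 and 99 CPM, nearly level over the plates, and 0.0700, 0.608 and 3.41 CPM in other cells. Its log2 ratios were 6.47, 5.88 and 4.50. Kcnq5 had smaller ratios of 4.25, 2.20 and 1.38, and 51 of its 79 cells also held Gm26580, which shares 237 exonic bases with it on the other strand. Kcnq1 was in 5 neuronal and 3 other cells, and its opposite-strand partner Kcnq1ot1, which overlaps its exons, in 86.4% of neuronal cells.

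In the EAG family, 87% of neuronal cells held a member, and Kcnh2 led by RPKM in 90 cells. Kcnh2 had neuronal means of 85.4, 61.3 and 62.6 CPM and means of 4.75, 9.18 and 14.0 CPM in other cells, with log2 ratios of 3.91, 2.62 and 2.09. Kcnh1 was in 42.2% of neuronal cells, with means of 23.0, 29.6 and 14.1 CPM against 4.18 and 0.320 CPM and 0 reads in other cells of plates 1, 2 and 3. Kcnh2 was found in 18% of other cells, more than any Kv3 or KCNQ gene. Kcnh7, the third ERG-type gene with Kcnh2 and Kcnh6, was in 27.3% of neuronal cells but in 44.4, 11.1 and 23.6% by plate. Kcnh6 was in 18.8% and in no other cell. Kcnh3, Kcnh4, Kcnh5 and Kcnh8 were each in 11 to 15 neuronal cells and in no other cell.

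Chat-only and Nos1-only cells could be compared on plates 2 and 3 (17 and 16 Chat-only against 14 and 13 Nos1-only cells), because plate 1 held 3 Nos1-only cells. Of 35 genes, 27 were not called, 5 were higher in Chat-only cells (Kcnq1, Kcnh4, Kcnh5, Kcnh7 and Kcng1), where 5.4% of all genes were, and 3 in Nos1-only cells (among them Kcna4 and Kcnh6), where 3.18% were. The median ratio of the 35 was 0.25 on the log2 scale and that of all genes 0.04. Without the highest cell of the higher class, Kcng1 and Kcnh5 were still called in Chat-only cells, and neither Kcna4 nor Kcnh6 was in Nos1-only cells.

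Kcng1 was higher in Chat-only cells, with Chat-only means of 111.5 and 61.8 CPM and Nos1-only means of 1.23 and 19.5 CPM. On these plates 9 of 17 and 7 of 16 Chat-only cells held it, against 1 of 14 and 1 of 13 Nos1-only cells, of which the plate 3 cell held 253 CPM. The log2 ratios were 5.65 and 1.61, and the call was lost when cells with another type's list were removed. Kcna5, singled out after its values were seen, was not called, with ratios of 0.31 and 4.02. A single Nos1-only cell of plate 2 held 523 CPM while the other 13 there were below 10 CPM. That cell, number 33, had 453052 reads, the fewest of all cells, and also held Slc17a6. By detection, 11 of 17 and 9 of 16 Chat-only cells held Kcna5, against 1 of 14 and 1 of 13 Nos1-only cells, and over all plates 64.3% and 6.67% of these classes did. In Nos1-only cells the Kv1 family was led by Kcna6 in 14 cells and Kcna4 in 6. Kcna6 itself was in 58.9% of the Chat-only class and 46.7% of the Nos1-only class.

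The other calls given here between these classes rested on few cells. Kcnh7 had Chat-only means of 2.11 and 26.2 CPM and Nos1-only means of 0.0911 and 1.10 CPM, but its plate 2 ratio went from 1.51 to 0.06 without 1 cell. Kcnh6 had Chat-only means of 5.53 and 3.12 CPM and Nos1-only means of 13.5 and 12.2 CPM, and the ratios of -1.15 and -1.68 became -0.84 and -1.21 without the highest cell. Kcna4 ratios of -1.16 and -1.09 became -0.02 and 0.13. Kcnh5 had Chat-only means of 8.25 and 6.50 CPM and 0 reads in Nos1-only cells, and was detected in 4 of 17 and 2 of 16 Chat-only cells. Its ratios of 3.21 and 2.91 became 2.56 and 2.04 without the highest cell, so its call was kept. Kcnh4 and Kcnq1 were called at Chat-only means of 14.4 and 2.41 CPM and of 6.15 and 1.44 CPM. Among the common genes, Kcnc1 was not called at ratios of -1.36 and -0.99, and Kcnc4 not at 2.02 and -0.29, although Kcnc1 led Kv3 in as many Nos1-only cells as Kcnc4 (10 each).

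**Figure D4:**
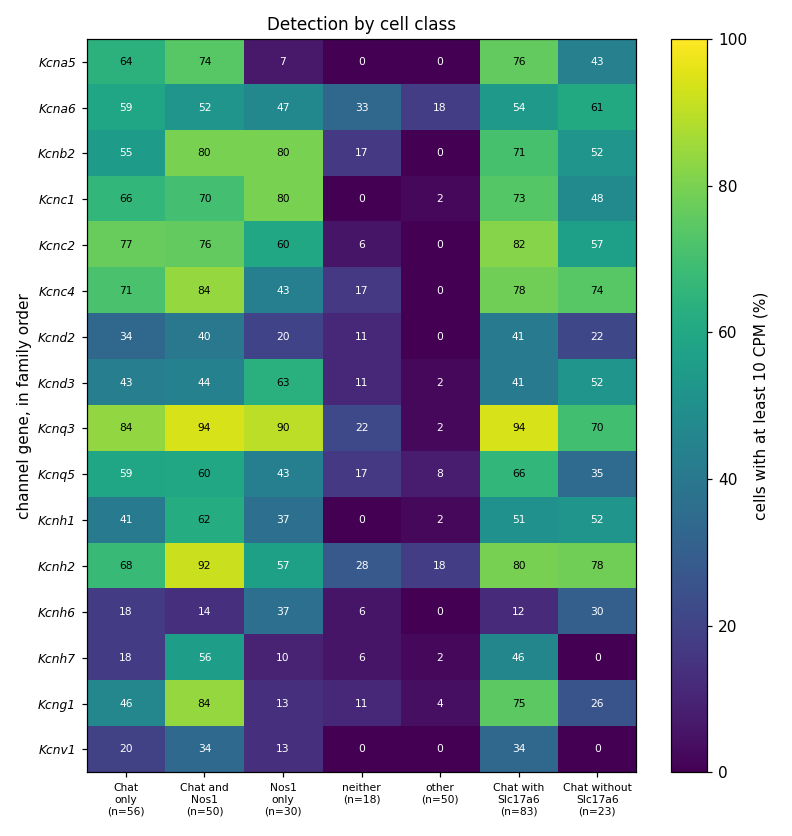
Percent of cells with at least 10 CPM (colour and printed value) for 16 alpha subunit genes in rows and 7 classes in columns. Kcna5 is at 6.67% in Nos1-only cells and 64.3% in Chat-only cells, and Kcng1 at 13.3% and 46.4%.

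Cells with both Chat and Nos1 held the broadest set, and 86% of them held Slc17a6. Mean Nos1 on plates 1, 2 and 3 was 78.5, 59.3 and 65.9 CPM in them and 38.9, 624.4 and 947.4 CPM in Nos1-only cells, of which plate 1 had 3. Kcng1 was detected in 84% (86.4, 80 and 83.3% by plate), with means of 194.7, 142.7 and 153.8 CPM, and a silent subunit of any kind in 92%, at a median sum of 41.7 RPKM against 5.15 in Chat-only cells. Kcnh2 was in 92% of them and 67.9% of Chat-only cells. Kcnh7 was in 56% and 17.9%, and by plate in 77.3, 40 and 38.9% of cells with both. Kcna5 was in 74% (72.7, 70 and 77.8%) and Kcnc4 in 84%. All 50 of these cells held a Kv2, a Kv3 and an EAG gene. Median reads were 4254672 in them and 4181979 in Chat-only cells. Cells with neither gene, of low depth, held Kcnh2 in 27.8% and Kcna5 in 0 of 18, where up to 16.7% is possible by the limit of 3 counts and 18.5% by the exact interval.

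**Figure D5:**
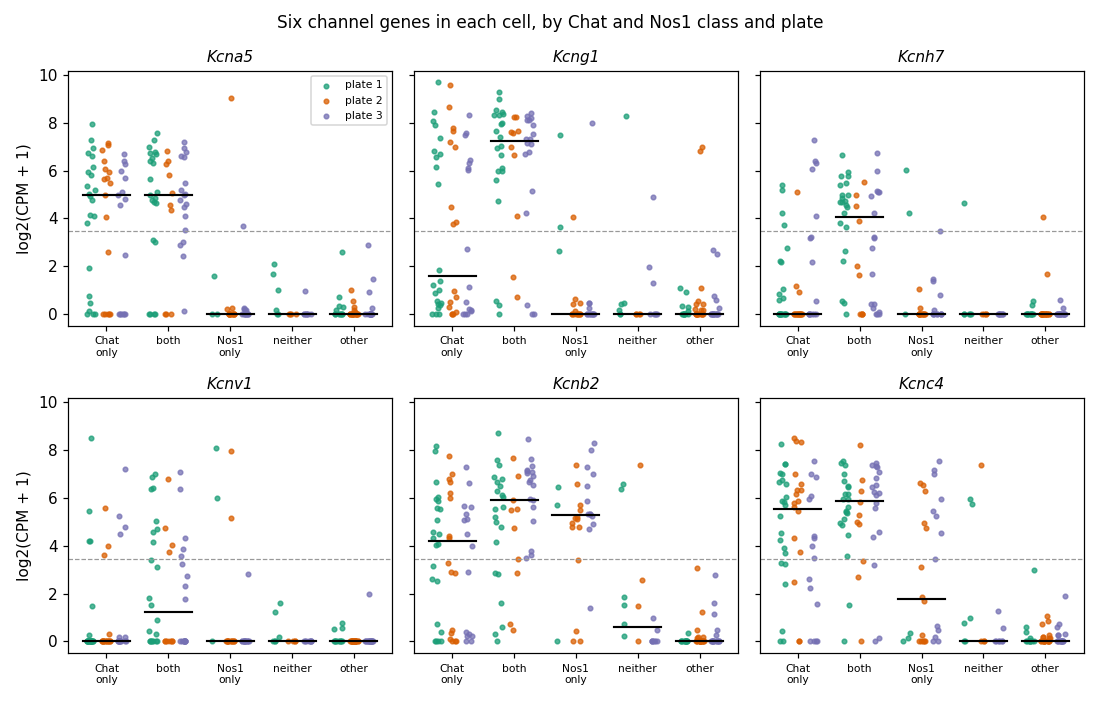
Level in each cell, as log2(CPM + 1) on the vertical axis, of Kcna5, Kcng1, Kcnh7, Kcnv1, Kcnb2 and Kcnc4 by class and plate; points are cells, black lines class medians and the dashed line 10 CPM. Kcna5 points reach the line in 6.67% of Nos1-only cells, and Kcng1 points in 84% of cells with both Chat and Nos1.

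The reporter of the study stands for Slc17a6, so cells with Chat were compared by whether Slc17a6 itself reached 10 CPM (83 with, 23 without). Plates 2 and 3 had enough cells (17 and 25 with, 10 and 9 without), and median reads were 4159428 and 4204531. On these plates Nos1 also reached 10 CPM in 6 of 17 and 15 of 25 cells with Slc17a6. It did so in 4 of 10 and 3 of 9 cells without, and the part of Nos1 in the differences was not tested. Kcna5, Kcnb2, Kcnh7, Kcnh8, Kcng1 and Kcnv1 were higher with Slc17a6, 6 of 35 genes, where 3.33% of all genes were. Kcnh4 and Kcnh6 were higher without it, 2 of 35, where 2.04% were. Without the highest cell of the higher class on each plate, Kcnh4 went from -2.02 and -1.86 to 0.40 and 0.38 and Kcnh6 from -2.26 and -1.26 to -1.85 and 0.09, and neither was called. Kcnh8 was not called then either, at 1.23 and 0.63 in place of 1.76 and 1.14, nor was Kcnb2. The median log2 ratio was 0.37 (0.53 with genes at 0 reads at their bound) and that of all genes 0.08 (0.10).

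Among Chat cells, Kcnh7 and Kcnv1 reached 10 CPM in none of the 23 without Slc17a6. Kcnh7 was in 21 of 41, 5 of 17 and 12 of 25 cells with Slc17a6 on plates 1, 2 and 3 and in 0 of 4, 0 of 10 and 0 of 9 without, and at 0 of 23 a share of up to 13.0% is possible by the limit of 3 counts and 14.8% by the exact interval. Its means were 8.87 and 29.4 CPM against 0.211 and 2.78 CPM on plates 2 and 3, with log2 ratios of 3.03 and 3.01. Kcnh7 shares 696 exonic bases with Gca on the opposite strand, and 11 of its 42 neuronal cells also held Gca. Kcnv1 was in 12 of 41, 7 of 17 and 9 of 25 cells with Slc17a6 and in none without. Its means were 13.7 and 20.1 CPM against 0.0238 and 0.714 CPM, with ratios of 3.85 and 3.62. Reads of both genes below that threshold were present without Slc17a6.

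Kcng1 was in 28 of 41, 13 of 17 and 21 of 25 cells with Slc17a6 and in 1 of 4, 4 of 10 and 1 of 9 without. Its means were 162 and 147.6 CPM against 56.7 and 7.52 CPM, with ratios of 1.50 and 4.12. Kcna5 was in 29 of 41, 14 of 17 and 20 of 25 cells against 3 of 4, 4 of 10 and 3 of 9, and its means were 61.2 and 46.9 CPM against 14.9 and 15.8 CPM. Kcnb2 had means of 58.8 and 89.9 CPM against 25.4 and 16.1 CPM, and its plate 2 ratio went from 1.18 to 0.93 without the highest cell. Kcnh6 had means of 2.25 and 1.70 CPM with and 14.6 and 5.48 CPM without Slc17a6. With the class threshold at 50 CPM, which let plate 1 in, Kcna5, Kcnb2 and Kcng1 were no longer called.

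Pairs of the 17 genes found in at least 25% of neuronal cells were ranked by the Spearman correlation over neuronal cells within each plate, averaged over plates. This is a description of cells that share depth and class. The 136 pairs had a median of 0.23, from -0.03 to 0.52. The highest was Kcna5 with Kcng1 at 0.52 (0.44, 0.55 and 0.57 on the 3 plates). Kcnc2 with Kcnq3 and Kcnh7 with Kcng1 followed at 0.47 each, then Kcnh2 with Kcng1 at 0.42 and Kcnb2 with Kcng1 at 0.41. Kcng1 was thus in 4 of these 5 pairs.

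Genes of channel partners were read from a list of 20, of which 16 passed the mean of 1 CPM. Higher in neuronal cells were 9 of the 16, where 15.2% of all genes were. These were Kcnab2, Kcnab3, Kcnip4, Dpp6, Amigo1, Lgi1, Cntnap2, Cntn2 and Dlg4. The median log2 ratio of the 16 was 2.76 and that of all genes 0.43. With the 7 genes that had 0 reads in a class on a plate at their bound, it was 3.26 against 0.49. Dpp6, which with KChIP proteins shapes Kv4 currents, was in 86.4% of neuronal and 0 of 50 other cells, with plate means from 150.3 to 218.7 CPM. Kcnip4, a KChIP gene, was in 74% and 4%, with means of 119.6, 112.5 and 97 CPM. Amigo1, a companion of Kv2, was in 69.5% and 18%, and Kcnab2, a Kv1 beta subunit, in 58.4% and 12%. Both scaffold genes Dlg4 (84.4% and 24%) and Ank3 (87.7% and 42%) were common, but Ank3 was not called, at ratios of 2.49, 0.36 and 1.22.

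Kcnab1, a Kv1 beta subunit, was higher in Nos1-only cells. It was in 23 of 30 Nos1-only cells (76.7%, 57.7 to 90.1), 19.6% of Chat-only cells, 18% of those with both and 2% of other cells. Its Nos1-only means were 87.8 and 144.1 CPM on plates 2 and 3 against Chat-only means of 17.7 and 8.71 CPM, with log2 ratios of -2.25 and -3.90. It was the only partner gene of 16 called higher there, where 3.18% of all genes were. Kcnab3 was the only 1 of 16 called higher in Chat-only cells, where 5.4% of all genes were. Its ratios were 1.91 and 2.48, but it stood at 0.57 on plate 2 without the highest cell. In cells with both, Kcnip4 was in 96% and Cntnap2, which clusters Kv1 channels along axons, in 72%, against 26.7% for Cntnap2 in Nos1-only cells. Kcnab1 and Kcnip1, 2 of 16, were called higher in Chat cells without Slc17a6, where 2.04% of all genes were. Neither was called without the highest cell.

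Single cells held the highest level of several rare genes. On plate 1, cell 23 (Nos1-only, 570219 reads) had the plate's highest Kcnh3 (347 CPM), Kcna10 (226 CPM), Kcns1 (189 CPM) and Kcna7 (56.1 CPM). Cell 40 of the same plate (Nos1-only) had the highest Kcna1 (86.7 CPM), Kcnd1 (212 CPM) and Kcns3 (53.7 CPM), and it carried the extrinsic sensory neuron list (Scn10a, Prdm12, Trpv1, Avil and Isl1) at a summed 2086 CPM. That list was carried by 3 cells in all. The wells of each plate were amplified as 1 pool, and of 1700 detections of alpha subunits in neuronal cells 1693 lay above 1% of the reads of the plate's highest cell.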

How the data were processed

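The authors deposited log2(RPKM + 1) values, 1 column per cell (base and offset read from the values). The submitters' processing notes name mm10; for the aligner, counter and strandedness nothing is stated in the sources used here. Whole reads were recovered by undoing the log and multiplying by gene length and the cell's total: 100% of 2375655 values came out whole within 1e-04. Lengths were GENCODE M21 exon sums for 31316 genes and the smallest fitting length for 6319. CPM is recovered reads per 1000000. The comparisons had been planned for counts and were made on these reads. The kit uses no molecular identifiers, so exact Clopper-Pearson 95% intervals cover counting error of cells only.

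A gene counted as detected at 10 CPM. Classes, the 2-fold rule on each plate that held at least 5 cells of both, and the mean of 1 CPM are as given above. Some members and the results that need them are not reported here. No doublet caller was run and no cell was removed. Cells are not replicates, so no test was made. Named with values by plate are genes in at least 50% of neuronal cells or called with at least 25% detection in the higher class; the rest are given by counts. The members and lists were chosen with earlier results of these data known. Python 3.11.15, numpy 2.4.6, scipy 1.17.1, pandas 2.3.3 and matplotlib 3.10.9 were used. The 2-fold rule was checked on simulated counts of genes with higher means only, so calls at low means were not covered.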

Additional observations from a re-analysis of the deposited data

Results flagged for a closer look

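The genes below differed by at least 2-fold in opposite directions on 2 plates, and the difference between plates was not tested. Apart from Kcnv1 (20.8%), each was detected in at most 13.0% of neuronal cells. Between neuronal and other cells, Kcna1 had a log2 ratio of 2.09 on plate 1 and -5.21 on plate 3, where neuronal cells had 0 reads and 1 other cell held 604 CPM (mean 36.1 CPM). Without that cell the plate 3 ratio was -0.67. Kcna2 had 1.33 on plate 1 and -1.45 on plate 2, which became 0.33 and 0.65 without the highest cell. Kcna3 had 1.24 on plate 2 and -1.53 on plate 3, the latter 1.59 without the highest cell. Kcnq1 had 1.49 on plate 2 and -2.34 on plate 1. Kcnf1 had 1.04 on plate 1 and -3.46 on plate 3, and Kcns3 1.59 on plate 3 and -1.97 on plate 2. Of these 4 values the first of each has 0 reads in other cells. The Kcns3 value on plate 2 has 0 reads in neuronal cells and was 0 without the highest other cell.

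Between Chat-only and Nos1-only cells, Kcnv1 had 3.39 on plate 3 and -1.99 on plate 2, where 1 Nos1-only cell held 245 CPM. This was cell 33, with 453052 reads, which also held the 523 CPM of Kcna5. Between Chat cells with and without Slc17a6, Kcnq1 had 1.34 on plate 3 and -1.51 on plate 2. Kcnh3 had 1.55 on plate 3 and -1.85 on plate 2, and Kcnf1 had 2.29 on plate 2 and -1.71 on plate 3. Each of these 3 had 0 reads in a class on 1 plate at least, so the fitted ratio there depends on the 1 CPM added.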

How the results depend on the processing

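Counting any read as detection gave 17 genes per neuronal cell. Detection at 50 CPM gave 5 genes per cell, 2 genes in at least 50% of cells, and silent subunits with Kv2 in 87.1%. Without plate 2 silent subunits were with Kv2 in 100%. Thinned to 450000 reads, the values were a median of 12, 10 genes and 96.6%. These shares with Kv2 cover only cells with a silent subunit and do not show the gap to neuronal cells without one. Genes higher in neuronal cells were 12 with 10 CPM added and 15 each by mean log2 difference, at a mean of 10 CPM and at 4-fold. Higher in Chat-only cells were 1 with 10 CPM added, 2 by log difference, 1 at a mean of 10 CPM, 1 at 4-fold and 2 without the highest cell. Higher in Nos1-only cells were 5 with 0.1 CPM added, 1 with 10 CPM added, 0 at a mean of 10 CPM, 1 at 4-fold, 1 without the highest cell and 1 without cells of another type's list. Higher with Slc17a6 were 3 with 10 CPM added, 2 at 4-fold and 3 at a class threshold of 50 CPM. Higher without Slc17a6 were 1 without cells of another list and 0 with 10 CPM added, by log difference, at a mean of 10 CPM, at 4-fold, without the highest cell and at the 50 CPM class threshold. Without the highest cell, Kcna4 (Chat-only over Nos1-only) turned to 0.0511 and Kcnh4 (with over without Slc17a6) to 0.392. The causes were not tested. Of the alternatives to the main values of each comparison 81 stayed within the limits set, and the 30 that did not are those given here. Of the alternatives to single-gene values 433 stayed, 149 moved and 2 reversed. No paired analysis was possible because the numbers that plates share only name cells. Genes under 10 CPM may be missed in shallow cells, and 3 plates limit what can be said of animals.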
